A study of Homo sapiens with 18 samples.

Results

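Death receptors are surface receptors of the tumour necrosis factor family. Here 9 genes of that pathway were followed through 18 xenograft tumour libraries: the receptors TNFRSF1A, TNFRSF10A, TNFRSF10B, TNFRSF10D and FAS, the adaptor FADD, the initiator caspases CASP8 and CASP10, and the inhibitor CFLAR. They were chosen by name, as the gene table rows with these symbols, out of 63677 genes listed. All 9 were found in every library. Of these, 6 (CASP8, FAS, FADD, CFLAR, TNFRSF10B and TNFRSF1A) reached 1 TPM in at least 3 libraries and entered the test across 18650 genes. CASP10, TNFRSF10A and TNFRSF10D did not. TPM, a count of transcripts scaled to a fixed total per library, is a level per transcript length, so levels of different genes can be compared.

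The tumours were bulk xenografts grown in mice from established human lines of neuroblastoma: SKNAS, LAN-1 and KELLY. For each, 3 libraries are titled as controls and 3 carry the name Hmx1, a homeobox transcription factor gene. Whether that arm gained or lost the gene is not in the labels, and the treatment field reads as none in all groups. The genotype field names MYCN amplification for 2 of the KELLY control libraries and is not filled in for the others. Nothing in the labels ties the libraries of 1 group to different animals, and p-values therefore measure only their spread, possibly a technical one.

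When a ligand such as FAS ligand, TRAIL or TNF binds its receptor, the adaptor FADD can be recruited and brings procaspase 8 and caspase 10 together, which lets them cleave themselves and then the executioner caspases. CFLAR encodes c-FLIP, a relative of caspase 8 that competes for the same complex and, depending on its isoform and amount, blocks that step. TNFRSF10D is a decoy that binds TRAIL without passing on a full death signal. In neuroblastoma, a childhood tumour of the sympathetic lineage, CASP8 is known to be silent in many tumours and lines, often with MYCN amplification and with methylation near the gene.

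HMX1 was listed at 0 in the 3 SKNAS control libraries and lay between 0.193 and 1.24 TPM in SKNAS Hmx1. It was between 3.92 and 16.5 TPM in LAN-1 and KELLY, with overlapping arms in both. Expression from a construct whose sequence differs from the human gene may not be counted here, and the labels name no construct. MYCN was at most 0.101 TPM in SKNAS, 741 to 898 in LAN-1 and 948 to 2000 in KELLY. Of the 9 noradrenergic neuroblastoma markers, the summed level was 831 to 1153 TPM in SKNAS, 1594 to 1925 in LAN-1 and 1987 to 3176 in KELLY. Mitochondrial transcripts took 4.47% to 33.8% of a library, and KELLY control replicates 1 and 3 had the highest shares, 33.8% and 29.6%. Read depth is unknown, since TPM keeps none.

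To show what the regulatory start of these genes looks like, 4 promoters are printed from RefSeq (GRCh38.p14): CASP8 and CFLAR, which were low in LAN-1 and KELLY, and FADD and TNFRSF1A, which were present in every library. Each is the 250 bases before the most upstream listed start, 5′ to 3′ on the gene's strand, with CpG dinucleotides, the sites of DNA methylation, in capitals.
CASP8, plus strand, chr2:201233213-201233462: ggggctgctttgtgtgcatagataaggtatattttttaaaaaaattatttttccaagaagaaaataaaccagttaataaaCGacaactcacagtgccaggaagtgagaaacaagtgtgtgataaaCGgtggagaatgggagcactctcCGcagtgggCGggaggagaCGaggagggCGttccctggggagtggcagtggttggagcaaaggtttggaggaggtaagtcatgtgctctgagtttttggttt
CFLAR, plus strand, chr2:201118466-201118715: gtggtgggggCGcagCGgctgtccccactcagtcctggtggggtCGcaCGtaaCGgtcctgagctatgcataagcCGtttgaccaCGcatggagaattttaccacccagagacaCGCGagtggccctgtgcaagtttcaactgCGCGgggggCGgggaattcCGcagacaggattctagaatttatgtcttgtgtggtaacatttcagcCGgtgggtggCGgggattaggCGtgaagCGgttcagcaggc
FADD, plus strand, chr11:70203046-70203295: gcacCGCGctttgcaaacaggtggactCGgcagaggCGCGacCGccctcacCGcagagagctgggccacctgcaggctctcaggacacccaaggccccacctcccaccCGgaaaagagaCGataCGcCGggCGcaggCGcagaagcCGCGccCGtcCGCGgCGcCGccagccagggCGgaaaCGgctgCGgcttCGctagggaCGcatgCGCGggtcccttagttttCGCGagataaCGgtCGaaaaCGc
TNFRSF1A, minus strand, chr12:6342077-6342326: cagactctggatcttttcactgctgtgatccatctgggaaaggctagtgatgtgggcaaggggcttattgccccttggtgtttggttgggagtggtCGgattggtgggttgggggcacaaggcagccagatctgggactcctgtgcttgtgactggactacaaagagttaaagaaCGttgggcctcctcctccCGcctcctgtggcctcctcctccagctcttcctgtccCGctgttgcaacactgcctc

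The CASP8 window holds 6 CpG and a GC content of 45.6%, against a median of 11 CpG and 58% over 35116 promoters of the same length. Fewer CpG than CASP8 were found in 38.1% of promoters. The CFLAR window holds 17 CpG, FADD 32 and TNFRSF1A 4. Of the 4, the 2 genes present in every library, TNFRSF1A and FADD, had the fewest and the most CpG. The count depends on the start taken: windows at other listed starts held 0 to 22 CpG for CFLAR and 5 for CASP8. The E-box CACGTG, a sequence that MYC family factors can bind, was found on neither strand in the windows of the 5 matched members (CASP8, CFLAR, FADD, FAS and TNFRSF1A), at any listed start, and 6.34% of all promoters hold it. A match to TTCNNNGAA, the GAS element bound by STAT factors, stood once in the printed CASP8 window, and 6.57% of all promoters hold 1 or more. The windows at the other listed CASP8 starts had no such match. Such matches are descriptions of the letters in these windows. Methylation was not measured here.

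CASP8, the initiator caspase, was high in SKNAS and low in both other lines. In SKNAS control it was at 28.9, 29.6 and 25.5 TPM, and in SKNAS Hmx1 at 16.4, 19.6 and 19.3. In LAN-1 it was at 0.708, 0.443 and 0.570 TPM in control and 0.860, 0.428 and 0.851 in Hmx1. In KELLY it was at 0.182, 0.380 and 0.309 TPM in control and 0.501, 0.500 and 0.444 in Hmx1. Every SKNAS library was above every LAN-1 and KELLY library. Within an arm, 63.6% to 72.6% of all genes tested did not overlap between SKNAS and another line.

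CASP8 passed the filter only through the SKNAS libraries, so its calls between SKNAS and the other lines are descriptions. Control SKNAS had 48.7-fold the mean CASP8 level of control LAN-1 (log2 difference of TPM + 1 4.20, SE 0.16, limma adjusted p = 3.28e-13). Against control KELLY it was 96.4-fold (4.49, SE 0.16, limma adjusted p = 1.45e-13). In the Hmx1 arms the log2 differences were 3.51 and 3.71, each with a limma adjusted p of at most 4.00e-12. LAN-1 and KELLY controls differed by 0.29 (95% interval -0.04 to 0.62, limma adjusted p = 0.135). The 3 LAN-1 libraries all lay above the 3 KELLY libraries, in a comparison where 55.8% of all genes tested did not overlap. The difference between LAN-1 and KELLY controls passed the threshold when 0.1 was added to TPM in place of 1 (0.80, limma adjusted p = 0.0257). In order of mean level, SKNAS control stood above SKNAS Hmx1, and then came LAN-1 Hmx1, LAN-1 control, KELLY Hmx1 and KELLY control. Libraries of LAN-1 Hmx1 overlapped those of LAN-1 control, and LAN-1 control overlapped KELLY Hmx1.

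**Figure D1:**
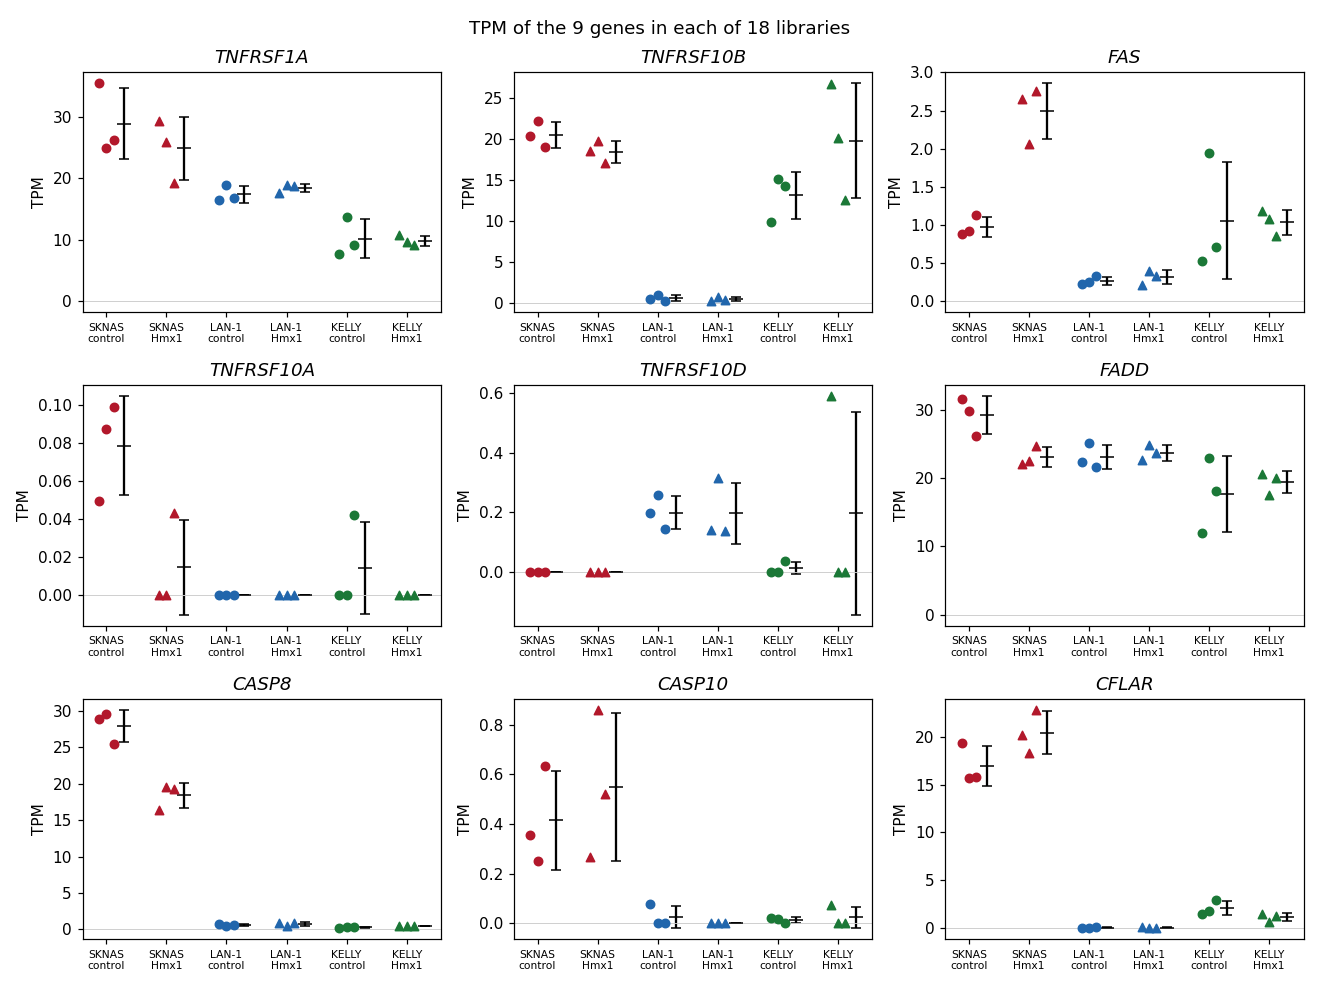
TPM of each of the 9 genes (vertical axes, linear, a scale of its own per gene) in the 6 groups; circles are control and triangles Hmx1 libraries, colours are lines, and the black mark and bar are mean and SD of 3 libraries. CASP8 lies between 16.4 and 29.6 TPM in SKNAS and at 0.860 or below in LAN-1 and KELLY, while FADD is at 11.98 TPM or more in all 18 libraries.

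CFLAR, the gene of c-FLIP, was high in SKNAS, low in KELLY and near 0 in LAN-1. It was at 19.4, 15.7 and 15.8 TPM in SKNAS control and 20.2, 18.3 and 22.8 in SKNAS Hmx1. KELLY control had 1.49, 1.82 and 2.92 TPM and KELLY Hmx1 1.52, 0.649 and 1.27. In LAN-1 no library exceeded 0.0662 TPM, and Hmx1 replicate 3 was listed at 0. The lines did not overlap, which within an arm held for 55.8% to 72.6% of all genes tested between 2 lines.

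The log2 difference of control SKNAS over control LAN-1 was 4.09 (SE 0.19, limma adjusted p = 7.14e-12) and over control KELLY 2.57 (SE 0.19, limma adjusted p = 4.01e-09). CFLAR was lower in control LAN-1 than in control KELLY by 1.53 (log2 -1.53, SE 0.19, limma adjusted p = 4.80e-06). The ratio of CASP8 to CFLAR, of levels per length, was 1.49 to 1.88 in SKNAS control and 0.106 to 0.209 in KELLY control. CFLAR was too close to 0 in LAN-1 for a ratio to be read.

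CASP10, the second initiator caspase, was low everywhere. Its SKNAS libraries ranged from 0.253 to 0.861 TPM, with overlapping arms, and no LAN-1 or KELLY library exceeded 0.0782. In control tumours the exact two-sided permutation test of SKNAS against LAN-1, and against KELLY, gave p = 0.1, the smallest that 3 against 3 libraries allow.

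CFLAR, CASP10 and CASP8 stand next to each other on the plus strand of chromosome 2, in band 2q33. In the files' coordinates, read as GRCh37, they lie at chr2:201980827-202041410, chr2:202047604-202094129 and chr2:202098166-202152434. The gaps between them are 6.19 and 4.04 kb, and the 3 genes span 172 kb. Of 14 listed neighbours, 11 were tested. In control tumours 4 of the 11 were higher and 2 lower in SKNAS than in LAN-1, beside 52% of all genes tested that were called either way. Against KELLY, 8 of 11 were higher in SKNAS and 0 lower, where 65.7% of all genes were called, and with median-ratio scaling the count was 7 higher and 2 lower.

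STRADB, a pseudokinase partner of LKB1 that lies beyond CASP8, was at 120.7 TPM in SKNAS, 48.2 in LAN-1 and 12.6 in KELLY control (means). TRAK2, which links mitochondria to motor proteins, was at 40.6, 16.7 and 8.32 TPM. ORC2, a subunit of the origin recognition complex, was at 45.8 TPM in SKNAS control and 17.4 in KELLY control (log2 difference 1.40, limma adjusted p = 5.85e-06). TMEM237, a gene of the primary cilium, was at 43.6 TPM in LAN-1 and 24.0 in KELLY control (log2 difference 0.87, limma adjusted p = 0.000901). On the other side of CFLAR, NDUFB3, a subunit of respiratory complex I, had means of 153, 127 and 105 TPM in SKNAS, LAN-1 and KELLY control. These 5 neighbours had control means of 8.32 TPM or more in every line. Others were lower: HYCC2 was at 4.82, 7.36 and 5.41 TPM in SKNAS, LAN-1 and KELLY control, and FLACC1, which was not tested, at 0.512, 0.159 and 0.267. Like HYCC2, CLK1 and PPIL3 had their highest control means in LAN-1. CLK1 was at 65.2, 112.6 and 78.6 TPM and PPIL3 at 39.2, 41.5 and 34.8, in the same order of lines. DNA copy number was not measured here.

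**Figure D2:**
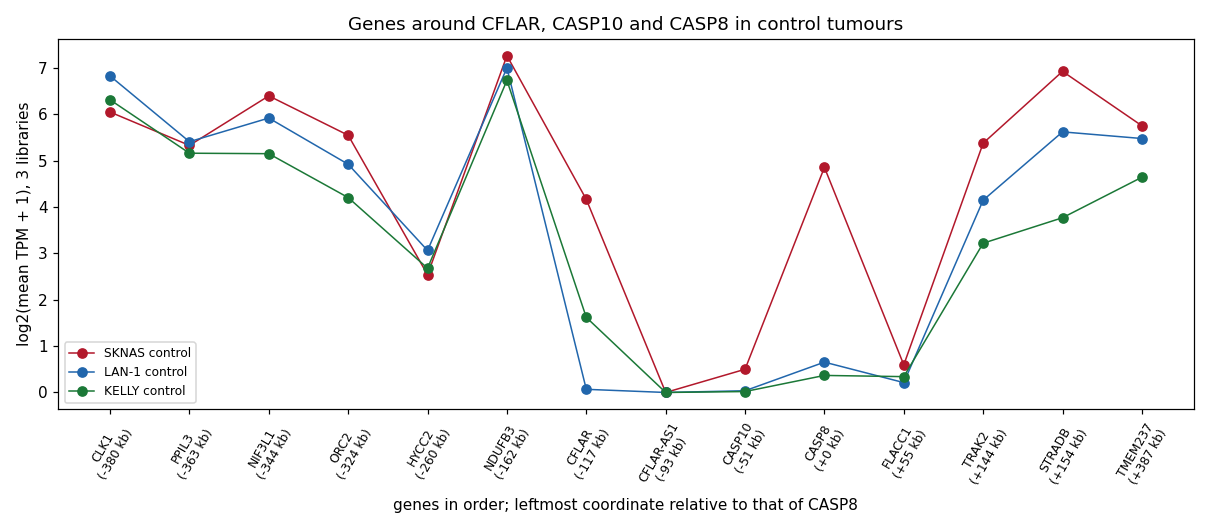
Mean level in control tumours (vertical axis, log2 of mean TPM + 1, 3 libraries per line) for genes around CFLAR, CASP10 and CASP8, in chromosome order but not to scale, with the distance of each left end from that of CASP8 in kb under the name. CASP8 is at 28.0 TPM in SKNAS and under 1 in the other lines, whereas STRADB and TRAK2 step down from SKNAS over LAN-1 to KELLY, with means of at least 8.32 TPM; CFLAR-AS1 is listed at 0 in all libraries.

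FADD, the adaptor that carries death receptors to caspase 8, was present in all lines, at 11.98 TPM or more. It was at 31.6, 29.9 and 26.2 TPM in SKNAS control, 22.4, 25.1 and 21.7 in LAN-1 control and 11.98, 22.98 and 18.03 in KELLY control. In the Hmx1 arms it ranged from 22.1 to 24.7 TPM in SKNAS, 22.6 to 24.9 in LAN-1 and 17.5 to 20.6 in KELLY. FADD and CASP8 were at nearly equal levels in SKNAS control, with a ratio of FADD to CASP8 of 1.01 to 1.09. The same ratio was 31.6 to 56.7 in LAN-1 control and 58.4 to 65.9 in KELLY control.

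Control SKNAS and LAN-1 differed in FADD by 0.33 (95% interval -0.06 to 0.71, limma adjusted p = 0.145), a difference that passed without mitochondrial transcripts (0.51, limma adjusted p = 0.00477) and with those groups fitted alone (0.0365). Against control KELLY the SKNAS level was higher by 0.74 (SE 0.18, limma adjusted p = 0.00194), but the median of all genes was itself 0.54 higher in SKNAS, and with median-ratio scaling the FADD difference was 0.12 (limma adjusted p = 0.451). With those groups fitted alone it also missed the threshold (limma adjusted p = 0.0512). Of the alternatives for control LAN-1 against KELLY, FADD passed only without KELLY control replicate 2 (0.61, limma adjusted p = 0.00464). In the Hmx1 arms the SKNAS minus KELLY difference of FADD turned in direction, from 0.24 (limma adjusted p = 0.253) to -0.32 with median-ratio scaling (limma adjusted p = 0.0493).

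Among the receptors, TNFRSF10B, which encodes the TRAIL receptor DR5, was high in SKNAS and KELLY and low in LAN-1. It was at 20.3, 22.2 and 19.0 TPM in SKNAS control and 18.5, 19.8 and 17.1 in SKNAS Hmx1. KELLY control had 9.93, 15.2 and 14.3 TPM and KELLY Hmx1 26.7, 20.1 and 12.6. LAN-1 ranged from 0.324 to 1.08 TPM. Its lowest SKNAS or KELLY library was thus above all LAN-1 libraries. Within an arm, 55.8% to 66.5% of all genes tested did not overlap between LAN-1 and another line.

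The log2 difference of control SKNAS over control LAN-1 was 3.71 (SE 0.24, limma adjusted p = 5.81e-10), and control LAN-1 was below control KELLY by 3.09 (log2 -3.09, SE 0.24, limma adjusted p = 1.39e-08). Between SKNAS and KELLY controls the difference of 0.62 (limma adjusted p = 0.0311) was close to the all-gene median of 0.54. It missed the threshold in 10 of 14 alternatives, turned to -0.048 with quantile normalization (limma adjusted p = 0.852), and was 0.45 without KELLY control replicate 1 (limma adjusted p = 0.135), 0.63 without SKNAS control replicate 1 (0.0628) and 0.57 without SKNAS control replicate 2 (0.0855). TNFRSF10B was thus present in KELLY, where CASP8 was at or below 0.501 TPM. In that line the ratio of CASP8 to TNFRSF10B was 0.0183 to 0.0250 in control, against 1.33 to 1.42 in SKNAS control.

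TNFRSF1A, the main receptor for TNF, was present in all 18 libraries. Levels were 35.6, 24.9 and 26.3 TPM in SKNAS control, 16.4, 19.0 and 16.9 in LAN-1 control and 7.65, 13.8 and 9.15 in KELLY control. The control lines did not overlap. SKNAS exceeded LAN-1 by 0.69 (SE 0.20, limma adjusted p = 0.00912), and without SKNAS control replicate 1 by 0.53 (limma adjusted p = 0.0574). SKNAS exceeded KELLY by 1.44 (SE 0.20, limma adjusted p = 9.19e-06). LAN-1 exceeded KELLY by 0.75 (SE 0.20, limma adjusted p = 0.00507), which became 0.31 with median-ratio scaling (limma adjusted p = 0.133), where the all-gene median moved by -0.34. With the compared groups fitted alone the limma adjusted p was 0.0539.

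FAS was low in all control tumours. It was at 0.882, 0.920 and 1.13 TPM in SKNAS, 0.225, 0.248 and 0.327 in LAN-1 and 0.521, 1.94 and 0.712 in KELLY. SKNAS control exceeded LAN-1 control by 0.64 (SE 0.19, limma adjusted p = 0.0101), and LAN-1 was below KELLY by 0.64 (log2 -0.64, SE 0.19, limma adjusted p = 0.0107). The KELLY value rested in part on control replicate 2: without it the log2 difference was -0.35 (limma adjusted p = 0.0506). With the compared groups fitted alone the limma adjusted p was 0.0913. SKNAS and KELLY control libraries overlapped, with a difference of 0.00 (95% interval -0.40 to 0.41, limma adjusted p = 0.996), whose sign turned under FPKM, quantile normalization and median-ratio scaling.

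TNFRSF10A, which encodes the TRAIL receptor DR4, did not exceed 0.0992 TPM in any library. It was listed at 0 in all 6 LAN-1 libraries, in 2 of 3 SKNAS Hmx1 libraries and in all but 1 of the KELLY libraries. The decoy TNFRSF10D was listed at 0 in all 6 SKNAS libraries and was at 0.136 to 0.313 TPM in LAN-1. In KELLY it was at 0.589 TPM in Hmx1 replicate 1, 0.0371 in control replicate 3 and 0 in the other 4. These genes stand beside TNFRSF10B on chromosome 8 (GRCh37 chr8:22877646-22926692 for TNFRSF10B, chr8:22993101-23021543 for TNFRSF10D and chr8:23047965-23082639 for TNFRSF10A). With TNFRSF10B at 17.1 TPM or more in SKNAS, TNFRSF10D was at 0 and TNFRSF10A at most 0.0992. The line means of TNFRSF10A, 0.0466 TPM in SKNAS, 0.00706 in KELLY and 0 in LAN-1, had the same order as those of TNFRSF10B, but lie too near 0 to be read. A further TRAIL decoy of the cluster, TNFRSF10C, was highest where TNFRSF10B was lowest, with means of 2.87 TPM in SKNAS control and 10.9 in LAN-1 control (log2 -1.63, limma adjusted p = 8.15e-06) and 1.67 in KELLY control. Between SKNAS and KELLY control its means ran in the same direction as those of TNFRSF10B (20.5 and 13.1 TPM). LOXL2, a lysyl oxidase gene near the cluster, was at 60.6, 5.24 and 2.29 TPM in SKNAS, LAN-1 and KELLY control.

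Over the 6 tested members, control SKNAS was higher than control LAN-1 for 5 and lower for 0; 31.5% of all genes tested were called higher, 20.5% lower and 52% either way. Their median log2 difference was 2.20, beside 0.18 for all genes. Against control KELLY 5 were higher and 0 lower, beside 49.5% of all genes called higher and 16.1% lower, with medians of 1.09 and 0.54. With quantile normalization or median-ratio scaling that count was 3 (CASP8, CFLAR and TNFRSF1A). CASP8 is in the counts for SKNAS, here and in the Hmx1 arms, although it passed the filter only through that line. Control LAN-1 against KELLY gave 1 higher (TNFRSF1A) and 3 lower (FAS, CFLAR and TNFRSF10B), beside 38.2% and 13.6% of all genes and 51.8% called either way.

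In the Hmx1 arms SKNAS was higher than LAN-1 for 4 members (CASP8, FAS, CFLAR and TNFRSF10B), and lower for 0, beside 34.2% of genes called higher, 18.9% lower and 53.1% either way. It was higher than KELLY for 4 (CASP8, FAS, CFLAR and TNFRSF1A) and lower for 0, beside 48.7%, 16.1% and 64.8%. That count depended on the scaling: it was 3 higher and 2 lower with quantile normalization and 4 higher and 2 lower with median-ratio scaling, the lower ones being FADD and TNFRSF10B (log2 -0.66 and -0.60 for TNFRSF10B, limma adjusted p = 0.00785 and 0.0129). LAN-1 against KELLY again gave TNFRSF1A as higher and FAS, CFLAR and TNFRSF10B as lower, beside 33.9% higher, 16% lower and 49.9% either way. Shares of 49.9% to 65.7% of all genes mean that a call between lines is common for any gene. The sizes for CASP8, CFLAR and, against LAN-1, TNFRSF10B were well above the all-gene medians, which lay between 0.18 and 0.54 for SKNAS over the others.

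**Figure D3:**
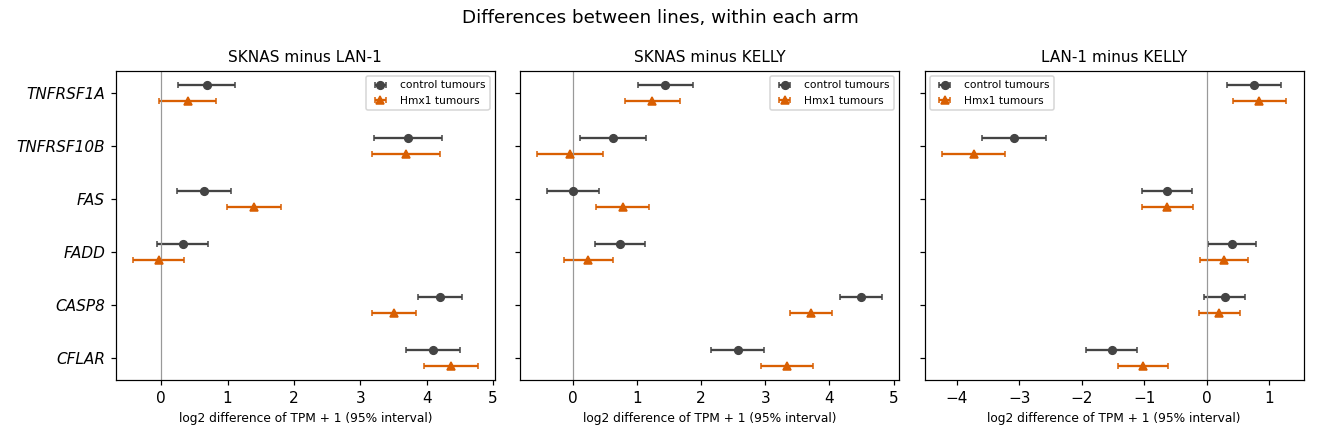
Differences between lines for the 6 tested members (horizontal axes, log2 difference of TPM + 1 with 95% intervals), circles for control and triangles for Hmx1 tumours, with the zero line in grey. CASP8 differs by 3.51 to 4.49 between SKNAS and each other line and by 0.20 to 0.29 between LAN-1 and KELLY, whereas TNFRSF10B separates LAN-1 from both other lines.

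Genes used as markers of other cell types also differed between the lines. The summed level of 8 fibroblast markers was 1136 to 1333 TPM in SKNAS control, 15.8 to 27.9 in LAN-1 control and 89.3 to 173 in KELLY control, with no marker at 0 in any SKNAS library. The 11 mesenchymal neuroblastoma markers summed to 718 to 786 TPM, 181 to 270 and 147 to 175 in the same groups. PTPRC, the pan-leukocyte gene of CD45, was at 75.7 to 102 TPM in SKNAS control and 187 to 285 in SKNAS Hmx1 and was listed at 0 in every LAN-1 and KELLY library. The other 13 leukocyte markers summed to at most 3.49 TPM in any library, and in each group 7 or 8 of them were at 0 in all 3 libraries. The endothelial gene PECAM1 was listed at 0 in all libraries. All of these are rows of human genes, and the sources used here do not state whether mouse reads were removed. Whether tumour or host cells gave these levels was not tested. The part of these differences in the levels of the death receptor genes was not tested. In bulk tumours, fewer cells of a type and less RNA per cell cannot be told apart.

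The genes whose levels ran most like a member's over the 18 libraries were read from Pearson's r of log2(TPM + 1), a description in which the points share 3 lines and 6 groups. For CASP8 these were NPFFR2, ARSJ and PABPC4L (each r = 0.996), all on chromosome 4. For CFLAR they were SNHG26 (0.994), DPYSL3 (0.988) and PTPN3 (0.986), and for TNFRSF10B they were PTGR1, GTSF1 and LTBR (0.987 to 0.988). For FAS they were CPED1, SMOC1 and ARHGAP18 (0.964 to 0.974). For FADD they were C3orf38, RPL26L1 and NDUFB6 (0.945 to 0.951), and for TNFRSF1A GSTCD, AADAT and TRAPPC8 (0.969 to 0.976). Among the members, CASP8 and CFLAR ran closest (r = 0.92), CASP8 and TNFRSF10B less so (0.51), and TNFRSF10B and TNFRSF1A not at all (-0.01, n = 18 each).

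**Figure D4:**
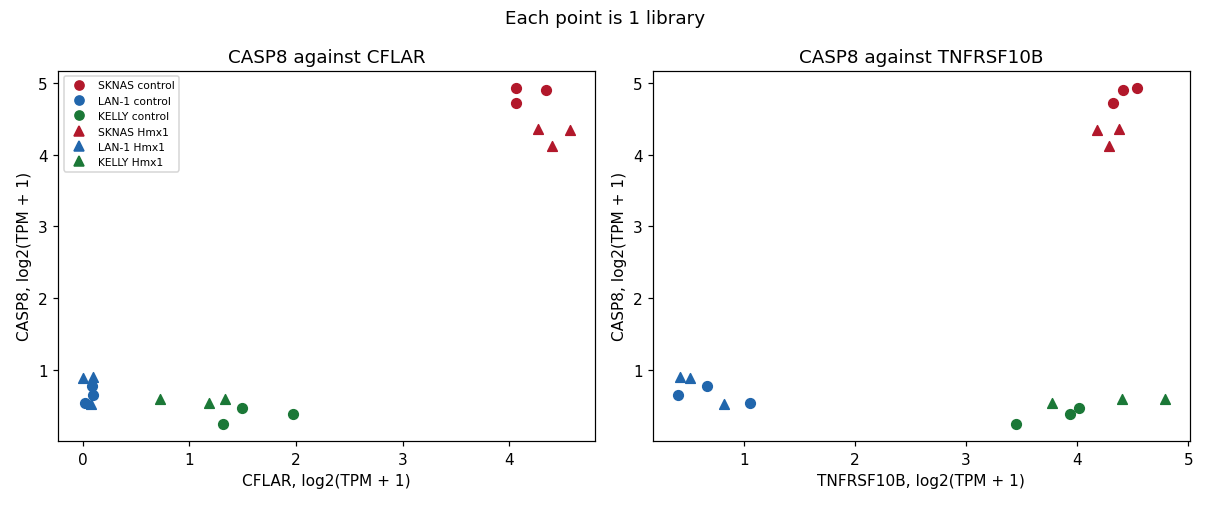
CASP8 against CFLAR (left) and against TNFRSF10B (right), all as log2(TPM + 1), 1 point per library, colours for lines and shapes for arms. SKNAS lies high on both axes in both panels, LAN-1 low on both, and KELLY low for CASP8 but between 9.93 and 26.7 TPM for TNFRSF10B.

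The arms were compared within each line. In SKNAS, 2 of the 6 tested members passed the threshold between Hmx1 and control, beside 8.76% of all genes (4.96% higher and 3.8% lower): FAS rose and CASP8 fell. FAS was at 2.65, 2.07 and 2.76 TPM in Hmx1 against 0.882, 0.920 and 1.13 in control, 2.55-fold by the means, and the arms did not overlap (log2 0.82, SE 0.19, limma adjusted p = 0.0102). The FAS call held in all 14 alternatives. FAS shares 734 bases at its start with ACTA2 on the opposite strand (FAS at GRCh37 chr10:90750414-90775542), and the sources used here do not give the use of strand in counting. ACTA2 had means of 10.6 TPM in control and 11.2 in Hmx1.

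CASP8 was at 28.0 ± 2.20 TPM (SD, n = 3) in SKNAS control and 18.4 ± 1.74 in SKNAS Hmx1, without overlap. The log2 difference was -0.58 (SE 0.16, limma adjusted p = 0.0251), 0.659 of the control mean. The call was lost when 0.1 was added to TPM (log2 -0.60, limma adjusted p = 0.291), without SKNAS control replicate 1 (-0.55, 0.0836) or 2 (-0.54, 0.0890), and without SKNAS Hmx1 replicate 1 (-0.50, 0.119) or 3 (-0.61, 0.0523), while the direction was the same in all 14 alternatives. With 30.9% of all genes tested not overlapping between the SKNAS arms, separation of 3 against 3 libraries alone was common.

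The other 4 did not pass in SKNAS. FADD, at 22.1, 22.4 and 24.7 TPM in Hmx1 below all 3 control libraries, had a log2 difference of -0.33 (95% interval -0.71 to 0.06, limma adjusted p = 0.381). CFLAR had 0.26 (-0.15 to 0.66, limma adjusted p = 0.573), TNFRSF10B -0.15 (-0.66 to 0.36, 0.868) and TNFRSF1A -0.21 (-0.64 to 0.22, 0.701). The ratio of CASP8 to CFLAR was 0.814 to 1.07 in SKNAS Hmx1, below its 1.49 to 1.88 in control, so that CFLAR was at or near the CASP8 level in Hmx1. TNFRSF10A was at 0.0493, 0.0877 and 0.0992 TPM in SKNAS control and 0, 0 and 0.0433 in Hmx1, levels at which p = 0.1, the smallest possible, came from the exact two-sided permutation test.

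Other markers moved between the SKNAS arms too. The fibroblast sum was 806 to 908 TPM in Hmx1 against 1136 to 1333 in control, the mesenchymal sum 502 to 556 against 718 to 786, and the sum of 5 proliferation genes 515 to 568 against 711 to 868. The 13 leukocyte markers other than PTPRC stayed between 0.853 and 3.49 TPM over both arms. PTPRC, the pan-leukocyte gene CD45, rose from 75.7 to 102 TPM in control to 187 to 285 in Hmx1 (log2 1.31, limma adjusted p = 3.30e-05), and the monocyte marker CD14 fell from a mean of 1.34 to 0.523 (-0.62, limma adjusted p = 0.0277). The endothelial sum was 6.48 to 9.25 TPM against 4.19 to 6.39 in control, with the receptor gene TEK up from a mean of 1.07 to 3.22 (1.03, limma adjusted p = 1.05e-05). TEK was the only 1 of 5 tested endothelial markers called, and the median log2 difference of the 5 was 0.04. Of 4 tested leukocyte markers 1 was higher, 1 lower and 2 not called. Beside these counts, 4.96% of all genes were called higher and 3.8% lower. The noradrenergic sum was 831 to 873 TPM against 1006 to 1153. The part of these markers in the CASP8 and FAS differences was not tested.

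In LAN-1 0 of the 6 members passed the threshold of the limma test between Hmx1 and control, beside 0.45% of all genes, and 0 had an unadjusted p under 0.05. CASP8 differed by 0.12 (95% interval -0.21 to 0.44) and FAS by 0.05 (-0.35 to 0.46). In KELLY 0 passed by limma, beside 0.0912% of all genes, and 2 had an unadjusted p under 0.05. These were CFLAR (log2 -0.51, 95% interval -0.92 to -0.11, limma adjusted p = 0.608) and TNFRSF10B (0.52, 0.01 to 1.03, limma adjusted p = 0.717), and in both genes the arms overlapped. CASP8 was higher in all 3 KELLY Hmx1 libraries than in the 3 controls, at levels of 0.501 TPM and below, with a difference of 0.20 (-0.13 to 0.53, limma adjusted p = 0.929). Libraries did not overlap for 6.67% of all genes in that comparison.

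**Figure D5:**
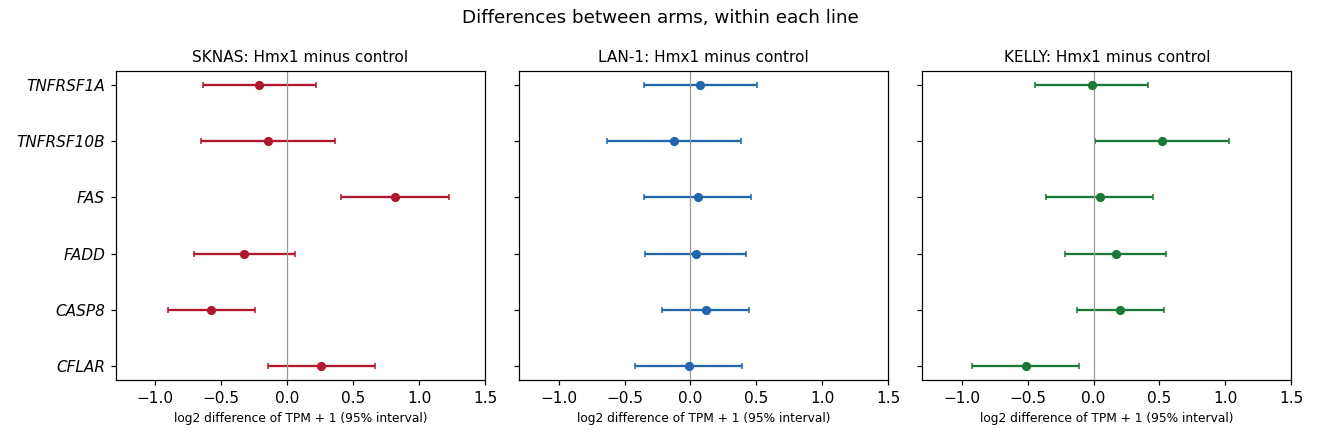
Hmx1 minus control within each line for the 6 tested members (horizontal axes on 1 scale, log2 difference of TPM + 1, bars are 95% intervals). In SKNAS the intervals of FAS (0.41 to 1.22) and CASP8 (-0.91 to -0.25) leave out 0 and pass the adjusted threshold; in KELLY those of CFLAR and TNFRSF10B leave out 0 but do not pass it.

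Whether the Hmx1 effect differed between lines was tested directly. By limma 0 of 6 members passed for SKNAS minus LAN-1 (4.99% of all genes were called), with CASP8 and FAS at an unadjusted p under 0.05. The CASP8 effects differed by -0.69 (95% interval -1.16 to -0.23, limma adjusted p = 0.0922) and the FAS effects by 0.76 (0.19 to 1.34, 0.148). For SKNAS minus KELLY, 0 of 6 passed as well (4.85% of all genes), with CASP8, FAS and CFLAR at an unadjusted p under 0.05. CASP8 had -0.78 (-1.24 to -0.31, limma adjusted p = 0.0519), FAS 0.77 (0.20 to 1.35, 0.133) and CFLAR 0.77 (0.20 to 1.35, 0.133). For LAN-1 minus KELLY 0 of 6 passed (0.209% of all genes) and 0 had an unadjusted p under 0.05. The CASP8 difference passed the threshold in both SKNAS comparisons with FPKM, with quantile normalization and with median-ratio scaling (log2 -0.62 to -0.74 against LAN-1 and -0.66 to -0.84 against KELLY). On TPM, the SKNAS minus KELLY difference also passed with no trend in the prior (limma adjusted p = 0.0351), without mitochondrial transcripts (0.0305) and without KELLY control replicate 2 (0.0355). CASP8 reached 1 TPM in SKNAS libraries alone, and at 0.182 to 0.860 TPM in the other lines log2(TPM + 1) leaves little room for a fall.

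Around the members, the other genes of the pathway were read from lists. Of 6 death ligands, only TNF reached the filter. FASLG was listed at 0 in all 18 libraries, and TNFSF10, the gene of TRAIL, did not exceed 0.455 TPM. TNF was at 0, 0 and 0.0792 TPM in SKNAS control and 4.55, 2.96 and 1.85 in SKNAS Hmx1, without overlap. It rose by 1.95 (SE 0.23, limma adjusted p = 1.09e-05), and the call held in all 14 alternatives. Outside that group only KELLY control replicate 2 reached 1 TPM. TNF thus passed the filter only through the SKNAS Hmx1 libraries, so its call is a description. In LAN-1 TNF lay between 0.119 and 0.589 TPM and in KELLY between 0.321 and 1.33, with overlapping arms.

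Of 9 other death receptors and decoys, 8 were tested. Beside 4.96% of all genes called higher and 3.8% lower in SKNAS Hmx1, 0 of the 8 were higher and 1 lower. That was TNFRSF11B, the gene of the soluble decoy osteoprotegerin, at 1.09, 1.77 and 1.19 TPM in control and 0.741, 0.165 and 0.143 in Hmx1 (log2 -0.82, SE 0.15, limma adjusted p = 0.00138), and with the SKNAS groups fitted alone the limma adjusted p was 0.0680. In LAN-1 and KELLY arms 0 of 8 passed, beside 0.45% and 0.0912% of all genes. TNFRSF11B was at 0 in nearly all LAN-1 and KELLY libraries, where it could not fall. It passed the filter only through the SKNAS control libraries, so its call is a description. Between control lines, TNFRSF1B, the second TNF receptor, which lacks a death domain, was at 14.3 TPM in KELLY, 1.55 in SKNAS and 0.224 in LAN-1 (means; LAN-1 below KELLY, log2 -3.57, limma adjusted p = 1.66e-09). TNFRSF12A, the TWEAK receptor, was at 5.53 TPM in SKNAS, 0.828 in LAN-1 and 0.980 in KELLY. TNFRSF25, the death receptor DR3, was at 13.8 TPM in KELLY control, 4.29 in SKNAS and 6.17 in LAN-1.

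Of 17 adaptors and kinases of the receptor complexes, 15 were tested. In SKNAS Hmx1 1 was higher and 2 lower, beside 4.96% and 3.8% of all genes. In the LAN-1 and KELLY arms 0 were called, beside 0.45% and 0.0912% of all genes. BIRC3, the ubiquitin ligase cIAP2 and a known NF-κB target, was at 0.226, 0.272 and 0.257 TPM in control and 1.81, 1.09 and 1.60 in Hmx1 (log2 0.99, SE 0.15, limma adjusted p = 0.000182). It passed the filter only through the SKNAS Hmx1 libraries, so its call is a description. TRAF1, an adaptor of TNF receptors, was at 2.08, 2.61 and 2.83 TPM in control and 1.17, 0.922 and 1.04 in Hmx1 (-0.77, SE 0.20, limma adjusted p = 0.0171). Its call was lost without SKNAS control replicate 2 or 3 or SKNAS Hmx1 replicate 2 or 3, with limma adjusted p-values of 0.0521 to 0.0679. MLKL, the pore-forming effector of necroptosis, was at 2.53, 2.48 and 2.03 TPM in control and 1.57, 1.01 and 0.955 in Hmx1 (-0.63, SE 0.12, limma adjusted p = 0.00255), a call lost with the SKNAS groups fitted alone (0.0512). MLKL was listed at 0 in all KELLY libraries and did not exceed 0.0486 TPM in LAN-1. Without the SKNAS control libraries MLKL would not have passed the filter, so its call is a description.

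Between control lines, 10 of the 15 were higher in SKNAS than in LAN-1 and 1 lower, and 11 higher and 1 lower than in KELLY, beside 31.5% and 20.5% of all genes in the first comparison and 49.5% and 16.1% in the second. With median-ratio scaling the latter count was 8 higher and 3 lower. MLKL (log2 1.72 for control SKNAS over control LAN-1) passed the filter only through SKNAS libraries, so its part in these counts is a description. RIPK1, the kinase that TNF receptor 1 recruits, was at 18.6 TPM in SKNAS and 5.73 in LAN-1 (log2 1.54, limma adjusted p = 9.06e-07). SHARPIN and RBCK1, subunits of the linear ubiquitin ligase, were also higher in SKNAS: SHARPIN at 60.2 against 25.0 TPM in LAN-1, RBCK1 at 88.8 against 19.9 in KELLY. TRAF2, an adaptor of TNF receptor 1, was at 49.3 TPM in KELLY and 18.2 in LAN-1 (-1.39 for LAN-1 minus KELLY, limma adjusted p = 4.73e-06).

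All 11 caspase 8 regulators were tested, with 1 higher and 0 lower in SKNAS Hmx1, beside 4.96% and 3.8% of all genes. FAIM, an inhibitor of FAS-driven apoptosis, was at 2.97, 4.11 and 2.77 TPM in SKNAS control and 9.68, 12.7 and 10.4 in SKNAS Hmx1 (log2 1.48, SE 0.23, limma adjusted p = 0.000295). Its SKNAS levels were below those of the other lines in both arms, which ranged from 29.1 to 66.1 TPM (control SKNAS against LAN-1 log2 -3.85, limma adjusted p = 2.14e-10). RFFL, a ubiquitin ligase that acts on caspases 8 and 10, was at 22.2 TPM in SKNAS control, 4.27 in LAN-1 and 2.81 in KELLY. FAIM2, another inhibitor of FAS signalling, was at 14.1 TPM in SKNAS control and 50.4 in LAN-1 (-1.78, limma adjusted p = 1.40e-07).

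Genes of the executioner step act after caspase 8. CASP6, an effector caspase, was at 85.7, 78.1 and 64.4 TPM in SKNAS control, above LAN-1 control (log2 2.56, limma adjusted p = 5.96e-07) and KELLY control (3.26, limma adjusted p = 2.47e-08). BID, which caspase 8 cleaves to reach the mitochondria, was lower in SKNAS: 17.5 TPM against 49.5 in LAN-1 control (log2 -1.45, limma adjusted p = 2.45e-06). Over the list of 14 genes, all tested, 7 were higher and 2 lower in control SKNAS than in KELLY, a share near the 65.7% of all genes called either way, and 3 and 3 with median-ratio scaling.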

How the data were processed

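RNA of bulk xenograft tumours was sequenced in 18 libraries with a stranded poly(A) kit, per the labels' protocols. The submitters' processing notes name bcl2fastq, STAR and FastQC, and the builds GRCh38.p12 and GRCh37 with no role. For the tool behind the gene tables, its annotation, its use of strand and any removal of mouse reads, the sources used here state nothing. The authors deposited TPM and FPKM per gene in 1 table per library. The last chromosome 1 gene ends at 249231242, past the last RefSeq GRCh38 gene (248937099), so positions were read as GRCh37. Lines that repeat a gene identifier (9 to 15 per library) were summed. Groups follow the sample titles.

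TPM was tested as log2(TPM + 1) with limma 3.58.1 in R 4.3.3, on all 18 libraries with 6 group means and a trended prior. Genes needed 1 TPM in at least 3 libraries. Benjamini-Hochberg adjustment ran over 18650 genes, with calls at an adjusted p under 0.05, and 12 comparisons were made. Genes under the filter had exact permutation tests. Scripts were tested on simulated data. Alternatives changed the pseudocount, filter, unit, scaling, prior and libraries. Promoters came from RefSeq, with motifs sought on both strands. The members and gene lists were chosen with earlier results of these data known. From each list the genes with the largest called differences were named, up to 3 per comparison, and some items are not reported here. TPM keeps no depth, so no counting intervals are given.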

Additional observations from a re-analysis of the deposited data

Results flagged for a closer look

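Between lines, the Hmx1 effect (Hmx1 minus control, log2 of TPM + 1) differed beyond the threshold of the limma test for 6 genes of the lists around the members. The lists held 1 tested death ligand, 8 other receptors and decoys, 15 adaptors and kinases and 11 caspase 8 regulators. They also held 14 executioner genes and 11 and 7 neighbours at 2q33 and 8p21. The 6 genes are taken over both comparisons with SKNAS. For SKNAS minus LAN-1, 1 gene each was called among ligands, receptors and decoys, adaptors and regulators, and 0 in the other lists. For SKNAS minus KELLY, 1 each was called among ligands, receptors and decoys, regulators and executioner genes. Among adaptors 1 was higher and 1 lower, and among neighbours 0 were called. Of all genes tested, 4.99% were called for SKNAS minus LAN-1 and 4.85% for SKNAS minus KELLY. No list was tested as a set. Of the 6 members themselves 0 passed. Among them CASP8 and FAS (SKNAS minus LAN-1) and CASP8, FAS and CFLAR (SKNAS minus KELLY) had an unadjusted p under 0.05. TNF, the ligand of TNFRSF1A, had an effect larger in SKNAS than in LAN-1 by 1.65 (limma adjusted p = 0.00369) and than in KELLY by 2.10 (limma adjusted p = 0.000470). For BIRC3, the ubiquitin ligase cIAP2, the effect was larger in SKNAS by 1.19 against LAN-1 (limma adjusted p = 0.00161) and by 1.03 against KELLY (limma adjusted p = 0.00582). In LAN-1 and KELLY the BIRC3 effects were -0.21 and -0.04. Both TNF and BIRC3 passed the filter only through the SKNAS Hmx1 libraries, so their calls are descriptions.

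FAIM, an inhibitor of FAS-driven apoptosis, differed by 1.76 against LAN-1 (limma adjusted p = 0.00275) and by 1.26 against KELLY (limma adjusted p = 0.0330), the latter lost in 10 of 20 alternatives. TNFRSF11B, the decoy osteoprotegerin, differed by -0.79 against LAN-1 (limma adjusted p = 0.0375) and by -0.82 against KELLY (limma adjusted p = 0.0328), and these calls were lost in 12 and 9 of 20 alternatives. It was at 0 in all KELLY libraries and in all but 1 of LAN-1, so the difference repeats the SKNAS effect. MLKL, the necroptosis effector, differed by -0.63 against KELLY (limma adjusted p = 0.0483), lost in 13 of 20 alternatives. MLKL was listed at 0 in all KELLY libraries, so this too repeats the SKNAS effect. Without the SKNAS control libraries neither TNFRSF11B nor MLKL would have passed the filter, so their calls are descriptions. CYCS, the gene of cytochrome c, differed by -0.76 against KELLY (limma adjusted p = 0.0409), lost in 10 of 20 alternatives, with means of 146 TPM in control and 111.4 in Hmx1 in SKNAS and of 205 and 261 in KELLY.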

How the results depend on the processing

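The total counts of called members were within 1.5 times of those reported except as follows, and the cause was not tested. Between the SKNAS arms the count was 1 in place of 2 with 0.1 added to TPM, and 1 to 2 when 1 library was left out. Control SKNAS against KELLY gave 3 in place of 5 with quantile normalization, with median-ratio scaling and with the compared groups fitted alone, and control LAN-1 against KELLY gave 2 in place of 4 with the compared groups fitted alone. Hmx1 SKNAS against KELLY stayed within 1.5 times, at 5 and 6 in place of 4 with quantile normalization and median-ratio scaling, but 2 of these were lower in place of 0. The difference of the Hmx1 effects between SKNAS and LAN-1 gave 1 in place of 0 with FPKM, quantile normalization, median-ratio scaling (CASP8 each time) or the compared groups fitted alone (FAS). Between SKNAS and KELLY it gave 1 in place of 0 with FPKM, quantile normalization, median-ratio scaling, no mitochondrial transcripts or no trend in the prior (CASP8), and 0 to 1 when 1 library was left out (FAS without KELLY control replicate 1, CASP8 without KELLY control replicate 2).

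Of single-gene values under the alternatives, 1761 kept their direction and side of the threshold, 100 lost the call, 19 gained one and 36 turned in direction. For FAS in control SKNAS minus KELLY the value was -0.087 with FPKM, -0.23 with quantile normalization, -0.28 with median-ratio scaling and -0.052 without mitochondrial transcripts. With quantile normalization TNFRSF10B in control SKNAS minus KELLY was -0.048, and the LAN-1 minus KELLY difference of FAS effects was -0.017. FADD turned with quantile normalization and median-ratio scaling to -0.059 and -0.044 in control LAN-1 minus KELLY, -0.35 and -0.32 in Hmx1 SKNAS minus KELLY, and -0.077 and -0.072 in Hmx1 LAN-1 minus KELLY. FADD in Hmx1 SKNAS minus LAN-1 was 0.14 without mitochondrial transcripts. With 1 library left out, values turned for FADD, CFLAR and TNFRSF10B between the LAN-1 arms (ranges -0.0021 to 0.10, -0.034 to 0.016 and -0.28 to 0.052). Between the KELLY arms they turned for FAS (-0.14 to 0.33), FADD (-0.072 to 0.37) and TNFRSF1A (-0.18 to 0.21). They also turned for FAS in control SKNAS minus KELLY (-0.18 to 0.29), TNFRSF10B in Hmx1 SKNAS minus KELLY (-0.32 to 0.19), and the LAN-1 minus KELLY difference of effects for CASP8 (-0.15 to 0.038) and FAS (-0.28 to 0.20).

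No paired analysis was possible because the labels carry no replicate numbers. TPM keeps no depth, so how far depth limits the values near 0 (CASP10, TNFRSF10A, TNFRSF10D) is unknown.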
